A study of Mus musculus with 6 samples.

Results

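Of 40 nuclear receptor genes taken by name, among them partners of the corepressors that work through the histone deacetylase HDAC3, 38 were measured in epithelial cells of the mouse large intestine, out of 19533 genes measured in all. Each was read by 1 probe set that names no other gene. Nr1h2, the gene of the liver X receptor LXRβ, and Nr2e3, that of a photoreceptor-cell receptor, had no such probe set and were not analysed here. The cells were live and EpCAM+ (a surface marker of epithelium), and came from 3 germ-free HDAC3ΔIEC mice, which lack Hdac3 in their intestinal epithelial cells, and from 3 germ-free HDAC3FF mice, their controls. All 6 mice were of the C57BL/6 strain and carried no microbes, and each gave total RNA for 1 Affymetrix array. The labels state neither the promoter behind the deletion nor the age of the mice.

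Nuclear receptors are transcription factors switched by small fat-soluble ligands such as steroids, thyroid hormone, retinoic acid, vitamin D, oxysterols, fatty acids and foreign chemicals. Many bind DNA as heterodimers with a retinoid X receptor (RXR). Without ligand, several of them, above all the thyroid hormone and retinoic acid receptors, hold the corepressors NCoR and SMRT on their target genes, and HDAC3 is the deacetylase of those complexes. In the gut, PXR is known for the induction of drug metabolism, VDR for calcium uptake, the PPARs for fatty acid use and the mineralocorticoid receptor for sodium uptake. The comparison asked whether the messages of the receptor genes differed between the genotypes in mice without bacteria. It measured RNA, and neither receptor protein nor activity.

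Signals are given on the log2 scale of the deposited values, on which 1 unit is a 2-fold change. Hdac3 itself read 6.58, 6.22 and 6.00 in HDAC3ΔIEC, against 6.96, 7.36 and 7.04 in HDAC3FF, so the groups were apart, by -0.86 ± 0.17 (SE), but the adjusted p of 0.0937 missed the threshold of 0.05. Whether its probes lie in the deleted part of the gene was not tested. The arrays' medians ran from 5.30 to 5.35. Replicate 3 of each group scattered most: limma's array weight was 0.65 for HDAC3ΔIEC replicate 3 and 0.47 for HDAC3FF replicate 3, and 1.01 to 1.63 for the other 4 arrays. Krt8, an epithelial keratin gene, averaged 13.08 ± 0.062 in HDAC3ΔIEC and 12.82 ± 0.058 in HDAC3FF (SD, n = 3 each). The linear signals of 8 epithelial markers summed to 32410 to 36273 in HDAC3ΔIEC and 27317 to 32959 in HDAC3FF. Of these 8, 6 had a positive difference (median 0.22, beside 0.011 over all genes). At an unadjusted p under 0.05 in limma, 4 were higher and 0 lower, beside 5.38% and 5.84% of all genes, and none passed the threshold. The part of this in the receptor differences was not tested. The linear signals of 14 myeloid markers summed to 496 to 576 in HDAC3ΔIEC and 609 to 684 in HDAC3FF, without overlap, but 8 of the 14 had a positive difference (median 0.027). The lower sum was carried by the complement gene C1qa, which fell (-1.71 ± 0.19, SE, adjusted p = 0.0204 in limma), and by Cd14 (-0.40 ± 0.16, SE). Without these 2, left out after seeing the data, the sums were 285 to 308 in HDAC3ΔIEC and 257 to 279 in HDAC3FF, the other way round. Those of 8 neuron and glia markers summed to 247 to 271 in HDAC3ΔIEC and 205 to 239 in HDAC3FF, also without overlap. The sums of T and NK cell, B cell, fibroblast and muscle, and endothelial markers overlapped. No signal is 0, and the deposited values do not mark background.

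None of the 38 receptor genes rose or fell at an adjusted p under 0.05 in limma. That level was reached by 0.701% of all genes, 0.369% as higher and 0.333% as lower. The lowest adjusted p was 0.128, that of Nr1i2. The fitted differences, HDAC3ΔIEC minus HDAC3FF, ran from -0.55 to 0.53, with 22 above 0 and 16 below. Their median was 0.021, beside 0.011 over all genes, and their median size 0.12, beside 0.096. An unadjusted p under 0.05 was found for 7 receptors (18.4%), beside 11.2% of all genes. Of these, Nr1i2 and Thra were higher in HDAC3ΔIEC, as were 5.38% of all genes at that level. Nr1h3, Nr2c2, Esrrg, Thrb and Nr2f2 were lower, as were 5.84% of all genes.

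In 8 receptors (21.1%) the arrays of one genotype all lay to the same side of the other, beside 16.2% of all genes. HDAC3ΔIEC was above in 2 of them, Nr1i2 and Esrrb (8.45% of all genes), and below in 6 (7.70%): Nr1h3, Thrb, Nr2c2, Nr2f2, Esrrg and Nr4a2. The 95% interval of the difference stayed within 1 log2 unit either way for 37 of the 38 receptors, and within 0.5 for 26. The exception to the wider bound was Thrb, whose interval reached -1.01. Of the 38, 30 had a mean above the 25th percentile of all gene means (4.11), and 24 above their median (5.34). The 14 others, called dim here, were Rxrg, Rarb, Esr1, Esr2, Pgr, Esrrb, Rora, Rorb, Nr4a2, Nr4a3, Nr2e1, Nr2f1, Nr5a1 and Nr0b1. Their differences lay between -0.18 and 0.13. A probe set's brightness depends on its probes as well as on the message, so levels are not ranked between receptors.

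**Figure D1:**
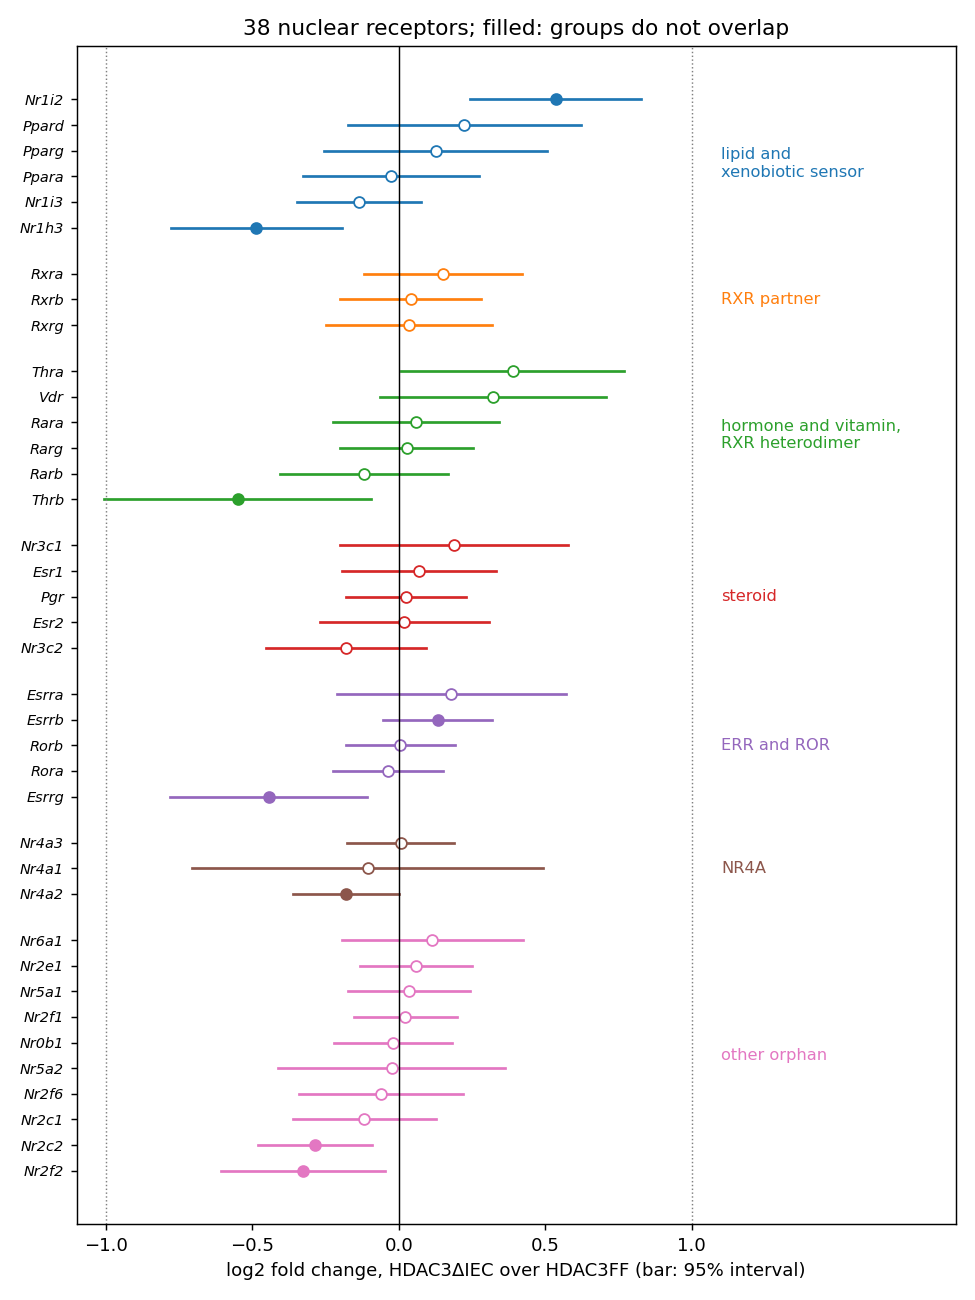
Fitted difference of each of the 38 receptors on the log2 scale, HDAC3ΔIEC minus HDAC3FF, with limma's 95% interval as a bar, grouped by role. Filled points mark the 8 receptors whose groups do not overlap; the intervals of Nr1i2 and Thra lie above 0 and those of Nr1h3, Thrb, Esrrg, Nr2c2 and Nr2f2 below it.

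Among the sensors of lipids and foreign chemicals, Nr1i2 encodes PXR, the pregnane X receptor that induces drug-metabolising enzymes and efflux pumps. Nr1i2 read 8.48, 8.62 and 8.26 in HDAC3ΔIEC, against 7.86, 7.82 and 8.09 in HDAC3FF. Every HDAC3ΔIEC array lay above every HDAC3FF array, at 145% of the control level (difference 0.53 ± 0.12 SE, 95% interval 0.24 to 0.83, adjusted p = 0.128 in limma). Nr1h3 encodes LXRα, the oxysterol receptor known for cholesterol efflux. Nr1h3 read 5.42, 5.24 and 5.58 in HDAC3ΔIEC, against 5.87, 6.08 and 5.76 in HDAC3FF. Every HDAC3ΔIEC array lay below every HDAC3FF array, at 71.4% of the control level (difference -0.49 ± 0.12 SE, 95% interval -0.78 to -0.20, adjusted p = 0.165 in limma). Macrophages express Nr1h3 too; the cells were sorted as live and EpCAM+, the myeloid markers given above had differences of both signs, and the part of such cells in this difference was not tested. In a bulk sample, fewer cells of a type and less RNA per cell cannot be told apart.

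The other sensors had overlapping groups. Nr1i3 encodes CAR, the constitutive androstane receptor and close relative of PXR. Nr1i3 read 6.79, 6.69 and 6.86 in HDAC3ΔIEC, against 6.82, 7.005 and 6.91 in HDAC3FF. Its difference was -0.14 ± 0.090 (SE), and HDAC3ΔIEC replicate 3 lay among the HDAC3FF arrays. Ppard encodes PPARδ, a fatty acid receptor. It read 8.92, 9.07 and 8.71 in HDAC3ΔIEC, against 8.35, 8.70 and 8.97 in HDAC3FF. In HDAC3FF the replicates of Ppard spread further than the difference between the means, 0.22 ± 0.17 (SE), which ran over 0.062 to 0.37 when single arrays were left out. Pparg encodes PPARγ, a fatty acid receptor best known from fat cells. It read 9.45, 9.40 and 9.72 in HDAC3ΔIEC, against 9.47, 9.65 and 9.08 in HDAC3FF. Here too HDAC3FF spread further than the difference of 0.12 ± 0.16 (SE). Ppara encodes PPARα, the receptor that drives fatty acid oxidation in liver. It read 7.01, 6.81 and 6.92 in HDAC3ΔIEC, against 7.02, 7.12 and 6.69 in HDAC3FF, and of the 3 PPAR genes it had the smallest difference, -0.027 ± 0.13 (SE).

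The fitted differences were largest for Thrb, Nr1i2 and Nr1h3, and the 250 bases before a RefSeq start of each are shown, 5′ to 3′ on the strand of the gene, for the presence of receptor binding letters. The windows are chr14:17660710-17660959 on the plus strand, chr16:38294825-38295074 on the minus strand and chr2:91195036-91195285 on the minus strand (RefSeq, GRCm38.p6). Capitals mark AGGTCA, the core hexamer of many nuclear receptor sites, or its reverse complement TGACCT.
Thrb: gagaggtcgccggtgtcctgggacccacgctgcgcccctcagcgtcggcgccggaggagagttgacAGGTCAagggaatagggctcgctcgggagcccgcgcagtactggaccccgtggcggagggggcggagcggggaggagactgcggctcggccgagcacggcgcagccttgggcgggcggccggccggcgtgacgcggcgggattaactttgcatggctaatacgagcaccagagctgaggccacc
Nr1i2: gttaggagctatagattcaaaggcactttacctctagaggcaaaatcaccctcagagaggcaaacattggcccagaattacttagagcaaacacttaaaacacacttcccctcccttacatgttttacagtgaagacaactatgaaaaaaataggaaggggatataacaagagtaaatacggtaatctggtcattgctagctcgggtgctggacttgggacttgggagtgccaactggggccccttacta
Nr1h3: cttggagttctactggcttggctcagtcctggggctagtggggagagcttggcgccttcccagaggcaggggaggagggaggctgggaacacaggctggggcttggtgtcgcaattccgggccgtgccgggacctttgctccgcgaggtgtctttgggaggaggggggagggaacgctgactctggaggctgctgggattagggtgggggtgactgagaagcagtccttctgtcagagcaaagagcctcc
The Thrb window held the hexamer 1 time, beginning 184 bases before the start, and the others did not hold it. Thrb and Nr1h3 have 2 windows each; a window with the hexamer was taken where there was one, and otherwise the one with the lower coordinate. Over both strands, 15.8% of 57 windows of 37 listed receptor genes held AGGTCA, beside 14.02% of 32851 windows of all genes. The 8 receptor genes were Nr0b1, Nr5a2, Nr6a1, Pparg, Rarg, Rxra, Rxrg and Thrb. GGGCGG, the GC box, was in 43.9% of receptor windows and 32.7% of all windows. A direct repeat of the hexamer with 1 base between was in 0 receptor windows and in 11 of all windows (0.0335%). Windows of one gene can overlap, and a match is a run of letters, not a bound site.

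The RXR genes, the shared partners in these heterodimers, had overlapping groups. Rxra read 8.41, 8.56 and 8.45 in HDAC3ΔIEC, against 8.16, 8.28 and 8.53 in HDAC3FF. HDAC3FF replicate 3 was inside the HDAC3ΔIEC range and the other HDAC3FF arrays below it. Rxrb read 6.13, 6.25 and 5.94 in HDAC3ΔIEC, against 5.99, 6.10 and 6.11 in HDAC3FF. Rxrg, which was dim, read 3.65, 3.74 and 4.07 in HDAC3ΔIEC, against 3.74, 3.79 and 3.82 in HDAC3FF, with HDAC3ΔIEC arrays on both sides of the HDAC3FF arrays. The differences were 0.15 ± 0.12 for Rxra, 0.040 ± 0.10 for Rxrb and 0.034 ± 0.12 for Rxrg (SE), and their intervals reached no further than -0.25 and 0.42.

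The fitted differences of the thyroid hormone receptor genes had opposite signs. Thra, known as the main such receptor of the intestinal epithelium, read 8.33, 8.48 and 7.97 in HDAC3ΔIEC, against 7.78, 8.11 and 7.71 in HDAC3FF. HDAC3ΔIEC replicate 3 was below HDAC3FF replicate 2, so the groups overlapped (difference 0.39 ± 0.16 SE, 95% interval 0.0087 to 0.77, adjusted p = 0.434 in limma). Thrb, which encodes the other receptor of this hormone, read 5.497, 5.40 and 4.81 in HDAC3ΔIEC, against 5.89, 5.91 and 5.56 in HDAC3FF. All HDAC3ΔIEC arrays were below all HDAC3FF arrays, and HDAC3ΔIEC replicate 3 was the lowest (difference -0.55 ± 0.19 SE, 95% interval -1.01 to -0.095, adjusted p = 0.331 in limma). The Thrb difference was -0.34 without that array, and lay between -0.68 and -0.34 over the 6 single omissions.

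To compare relatives within each array, the signal of one was taken from that of the other in 25 pairs of the same subfamily. Thra minus Thrb was 2.83, 3.08 and 3.16 in HDAC3ΔIEC, against 1.89, 2.20 and 2.15 in HDAC3FF. The groups were apart by 0.94 ± 0.14 (SE), at p = 0.1 in a two-sided exact permutation test, which is the lowest p that 3 arrays against 3 permit. Nr1i2 minus Nr1i3 was 1.70, 1.94 and 1.40 in HDAC3ΔIEC, against 1.04, 0.81 and 1.18 in HDAC3FF. These groups were apart by 0.67 ± 0.19 (SE), again at the lowest exact p of 0.1. In 7 of the 25 pairs (28%) the groups did not overlap, and adjusted over the 25 the lowest exact p was 0.357. The share without overlap was 16.2% for single genes and was not computed for pairs of other genes, so the 28% has no like value beside it. Many receptors are in more than 1 of the 25 pairs. The other 5 pairs were Esrra minus Esrrg (0.62), Esrrb minus Esrrg (0.58), Nr2f1 minus Nr2f2 (0.35), Rara minus Rarb (0.18) and Nr4a2 minus Nr4a3 (-0.18), each given as HDAC3ΔIEC minus HDAC3FF. Esrrg is in 2 of the 7 pairs. Esrrb, Nr2f1 and Nr4a3 were not above the 25th percentile of gene means, so their pairs largely repeat the differences of Esrrg, Nr2f2 and Nr4a2.

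Vdr encodes the vitamin D receptor, which induces calcium uptake genes in the gut. It read 11.37, 11.45 and 10.92 in HDAC3ΔIEC, against 10.79, 10.84 and 11.14 in HDAC3FF. HDAC3ΔIEC replicates 1 and 2 were above every HDAC3FF array, and HDAC3ΔIEC replicate 3 lay among them (difference 0.32 ± 0.16 SE, 95% interval -0.065 to 0.71, adjusted p = 0.551 in limma). The retinoic acid receptor genes all had overlapping groups. Rara, the gene of RARα, read 7.60, 7.79 and 7.46 in HDAC3ΔIEC, against 7.40, 7.56 and 7.71 in HDAC3FF. Rarg, that of RARγ, read 6.05, 5.82 and 6.00 in HDAC3ΔIEC, against 5.83, 6.00 and 5.97 in HDAC3FF. Rarb, that of RARβ and itself induced by retinoic acid in many tissues, read 4.99, 4.89 and 4.77 in HDAC3ΔIEC, against 4.80, 5.02 and 5.19 in HDAC3FF. Their differences were 0.059 ± 0.12 for Rara, 0.026 ± 0.097 for Rarg and -0.12 ± 0.12 for Rarb (SE).

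**Figure D2:**
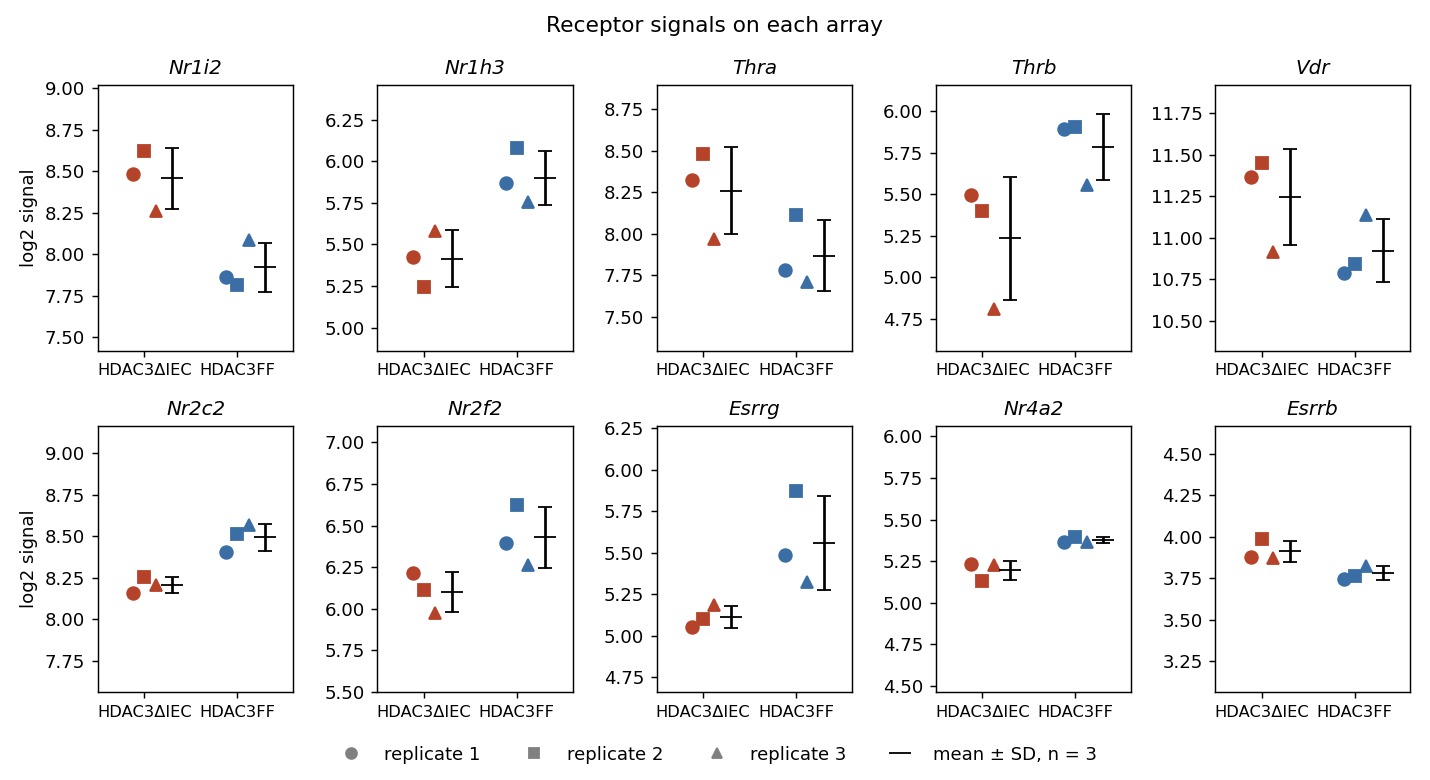
Log2 signal of 10 receptors on each array, HDAC3ΔIEC left and HDAC3FF right, with a symbol for each replicate and the mean ± SD of 3 arrays. Nr1i2 and Esrrb are higher and Nr1h3, Thrb, Nr2c2, Nr2f2, Esrrg and Nr4a2 lower in HDAC3ΔIEC without overlap, and Thra and Vdr overlap through replicate 3 of HDAC3ΔIEC.

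The steroid receptor genes had overlapping groups. Nr3c1, the gene of the glucocorticoid receptor, read 7.49, 7.72 and 8.12 in HDAC3ΔIEC, against 7.60, 7.72 and 7.44 in HDAC3FF. HDAC3ΔIEC replicate 3 was its highest array and HDAC3FF replicate 3 its lowest, at a difference of 0.19 ± 0.17 (SE), which ran over 0.016 to 0.33 when single arrays were left out. Nr3c2 encodes the mineralocorticoid receptor, through which aldosterone raises sodium uptake in the colon. It read 8.71, 8.94 and 8.61 in HDAC3ΔIEC, against 8.82, 8.90 and 9.08 in HDAC3FF. HDAC3ΔIEC replicate 2 was inside the HDAC3FF range and the other HDAC3ΔIEC arrays below it (-0.18 ± 0.12, SE). The estrogen and progesterone receptor genes were dim. Esr1 averaged 4.68 in HDAC3ΔIEC and 4.61 in HDAC3FF, Esr2 4.29 in HDAC3ΔIEC and 4.27 in HDAC3FF, and Pgr 3.74 in HDAC3ΔIEC and 3.72 in HDAC3FF. None of the 5 steroid receptor differences was larger than 0.19 in size.

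Of the estrogen-related receptors, orphan regulators of mitochondrial genes, Esrrg had the largest difference. It read 5.06, 5.10 and 5.19 in HDAC3ΔIEC, against 5.48, 5.87 and 5.32 in HDAC3FF. Each HDAC3ΔIEC array was below each HDAC3FF array, and HDAC3FF replicate 2 was the highest (difference -0.44 ± 0.14 SE, 95% interval -0.78 to -0.11, adjusted p = 0.277 in limma). Without HDAC3FF replicate 2 the difference was -0.29. Esrra read 6.79, 7.25 and 7.36 in HDAC3ΔIEC, against 6.84, 7.15 and 6.87 in HDAC3FF, with overlapping groups (0.18 ± 0.17, SE, and 0.063 to 0.35 when single arrays were left out). Esrrb, known for its role in embryonic stem cells, was dim and read 3.88, 3.98 and 3.87 in HDAC3ΔIEC, against 3.75, 3.77 and 3.83 in HDAC3FF. Its groups did not overlap, at a small difference of 0.13 ± 0.079 (SE, adjusted p = 0.633 in limma). The dim Rora and Rorb encode retinoid-related orphan receptors. Rora averaged 3.77 ± 0.058 in HDAC3ΔIEC and 3.80 ± 0.053 in HDAC3FF, and Rorb 4.09 ± 0.047 in HDAC3ΔIEC and 4.08 ± 0.054 in HDAC3FF (SD, n = 3 each).

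The NR4A genes are immediate early genes whose products need no known ligand. Nr4a1 read 6.27, 5.73 and 5.89 in HDAC3ΔIEC, against 5.81, 5.75 and 6.64 in HDAC3FF. HDAC3FF replicate 3 was the highest array, and the interval of the difference, -0.71 to 0.49, was the widest of the 38. Nr4a2, which was dim, read 5.23, 5.13 and 5.23 in HDAC3ΔIEC, against 5.36, 5.39 and 5.36 in HDAC3FF. Its replicates were close together and its groups did not overlap (difference -0.18 ± 0.077 SE, 95% interval -0.36 to 0.0019, adjusted p = 0.452 in limma). Nr4a3 averaged 3.79 ± 0.059 in HDAC3ΔIEC and 3.78 ± 0.031 in HDAC3FF (SD, n = 3 each).

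Among the 10 other orphan receptors, 2 had groups that did not overlap, beside 16.2% of all genes. Both were lower in HDAC3ΔIEC, as were 7.70% of all genes without overlap. Nr2c2, the gene of the testicular receptor TR4, read 8.16, 8.26 and 8.21 in HDAC3ΔIEC, against 8.41, 8.51 and 8.57 in HDAC3FF. Replicates lay close together in both groups, and the level was 82% of the control level (difference -0.29 ± 0.083 SE, 95% interval -0.48 to -0.091, adjusted p = 0.231 in limma). Nr2f2 encodes COUP-TFII, best known from mesenchyme and veins. It read 6.21, 6.11 and 5.97 in HDAC3ΔIEC, against 6.40, 6.63 and 6.26 in HDAC3FF. Every HDAC3ΔIEC array was below every HDAC3FF array (difference -0.33 ± 0.12 SE, 95% interval -0.61 to -0.047, adjusted p = 0.351 in limma). Beside it, 13 fibroblast and muscle markers summed to 477 to 538 in HDAC3ΔIEC and 451 to 529 in HDAC3FF. The sums of 8 endothelial markers were 195 to 210 in HDAC3ΔIEC and 178 to 205 in HDAC3FF. A positive difference was found for 8 of the 13 fibroblast and muscle markers and 3 of the 8 endothelial markers. The brightest member of each list, Tagln (0.27 ± 0.15) and Lyve1 (0.21 ± 0.15, SE each), was higher and did not pass. Pdgfrb of pericytes (-0.15 ± 0.075) and Pecam1 of endothelium (-0.12 ± 0.082, SE each) were lower without overlap, as were 7.70% of all genes, and did not pass. The part of such cells in the Nr2f2 difference was not tested.

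Nr5a2 encodes LRH-1, which drives steroid synthesis in intestinal crypts. It read 7.72, 7.70 and 7.34 in HDAC3ΔIEC, against 7.70, 7.83 and 7.30 in HDAC3FF, and both groups covered nearly the same range (-0.025 ± 0.17, SE). Nr2c1, the gene of the receptor TR2 that pairs with TR4, read 6.24, 6.25 and 6.27 in HDAC3ΔIEC, against 6.47, 6.47 and 6.17 in HDAC3FF. HDAC3FF replicate 3 was below all HDAC3ΔIEC arrays and the other HDAC3FF arrays above them (-0.12 ± 0.10, SE). Nr2f6, a relative of Nr2f2, read 6.98, 7.04 and 7.30 in HDAC3ΔIEC, against 7.09, 7.33 and 7.09 in HDAC3FF. Nr6a1, the gene of germ cell nuclear factor, read 6.38, 6.53 and 6.77 in HDAC3ΔIEC, against 6.35, 6.35 and 6.63 in HDAC3FF. The groups of both overlapped, at -0.060 ± 0.12 for Nr2f6 and 0.11 ± 0.13 for Nr6a1 (SE). The dim Nr2e1, Nr2f1, Nr5a1 and Nr0b1, whose products are known from brain, gonad and adrenal development, differed by 0.059 ± 0.081, 0.022 ± 0.074, 0.035 ± 0.089 and -0.021 ± 0.086 (SE) in that order.

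None of the 38 receptor genes passed when any 1 of the 6 arrays was left out. Over those 6 fits the difference of Nr1i2 ran from 0.45 to 0.63 and that of Nr1h3 from -0.57 to -0.40. Without replicate 3 of both groups, an alternative chosen after seeing the data, Nr1i2 passed as higher (0.72, adjusted p = 0.0222 in limma). Vdr also passed as higher (0.59, adjusted p = 0.0317) and Nr1h3 as lower (-0.64, adjusted p = 0.0442). In that fit of 4 arrays, 3.81% of all genes passed in either direction, and 47.3% had groups that did not overlap, as did 24 of the 38 receptors. With all 6 arrays weighted, Nr1i2 passed (0.62, adjusted p = 0.0404 in limma), where 1.83% of all genes passed, and no other of the 38 receptors did.

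**Figure D3:**
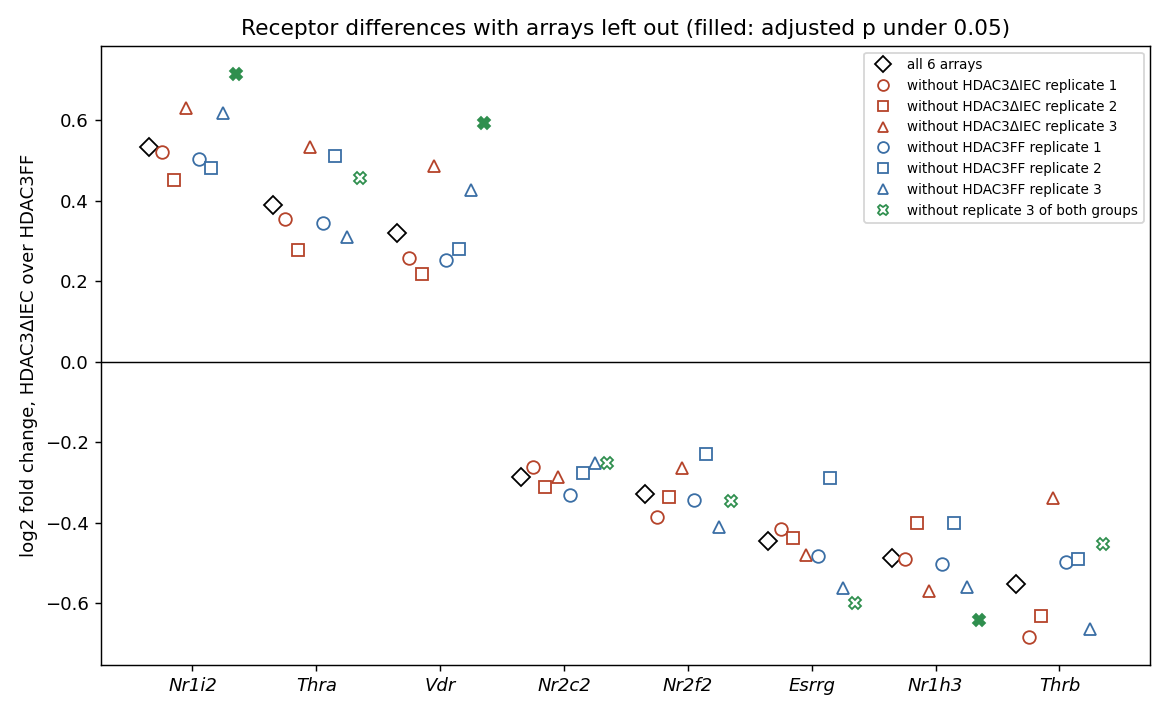
Fitted log2 difference, HDAC3ΔIEC minus HDAC3FF, of 8 receptors with all 6 arrays, with each array left out and without replicate 3 of both groups; filled symbols mark an adjusted p under 0.05. The direction of each is the same in every fit, and the filled symbols belong to Nr1i2, Vdr and Nr1h3 in the fit without replicate 3 of both groups.

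The cofactors, ligand handlers and known targets of the receptors were described in 15 lists of 183 measured genes, which include 4 of the 38 receptors (Nr1h3, Rarb, Thrb and Esrra). Of the 183, 12 rose and 2 fell in HDAC3ΔIEC (7.65%, beside 0.701% of all genes). The lists were chosen with earlier results of these data known, so this share is a description and not a test. The count depended on the arrays: Vnn1, Ckb and Rbp7 passed in all 6 single omissions, and the other 11 in 1 to 3 of them. Without HDAC3FF replicate 1, HDAC3ΔIEC replicate 2 or HDAC3ΔIEC replicate 3, only Vnn1, Ckb and Rbp7 passed among the list genes. Without HDAC3ΔIEC replicate 1, 5 passed, without HDAC3FF replicate 2, 7, and without HDAC3FF replicate 3, 23. Of the 4 measured genes of the HDAC3 corepressor complex, Tbl1x, whose product exchanges corepressors for coactivators, rose (0.65 ± 0.089, SE, adjusted p = 0.0355 in limma), though not with an intensity trend (0.0684). None of 10 other corepressor genes passed (median -0.083), the lowest p being those of Sin3a (-0.49 ± 0.14, SE) and Hdac1 (0.34 ± 0.13, SE).

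PPAR targets, the longest list, had more calls than any other list, while no PPAR gene passed. Of 26 measured, 5 rose, 0 fell and 21 did not pass, where 0.369% of all genes rose. The median was 0.44 beside 0.011 over all genes. Shorter lists had fewer calls among fewer genes, such as 1 of 4 genes of the HDAC3 corepressor complex, and 1 rise and 1 fall among 10 VDR targets. Vnn1, a pantetheinase gene, read 7.45, 7.57 and 7.59 in HDAC3ΔIEC, against 5.67, 5.36 and 5.70 in HDAC3FF. Pdk4, the kinase gene that spares glucose, rose by 2.02 ± 0.28, the lipase inhibitor gene Angptl4 by 0.89 ± 0.084 and the fatty acid oxidation genes Cpt2 and Hadha by 0.72 ± 0.093 and 0.71 ± 0.11 (SE). Of 15 LXR targets, 2 rose, 0 fell and 13 did not pass (median 0.19). They were the desaturase gene Scd1 (2.51 ± 0.31, SE) and the phospholipid remodelling gene Lpcat3 (0.62 ± 0.086, SE), which did not pass with an intensity trend (adjusted p = 0.0627 in limma). Nr1h3 itself, which the LXR list holds, was lower without passing.

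None of 16 PXR and CAR targets passed (median 0.063), and 7 (43.8%) had an unadjusted p under 0.05, beside 11.2% of all genes. That share was not particular to this list. It was larger among VDR, PPAR (46.2%) and LRH-1 targets (45.5%), and nearly as large among thyroid hormone receptor (41.7%) and LXR targets. The RAR, mineralocorticoid receptor, glucocorticoid receptor and ERR lists had lower shares, from 16.7% to 22.2%. Of the 7 PXR and CAR targets, 5 were higher in HDAC3ΔIEC, as were 5.38% of all genes at that level. They were the efflux pump genes Abcb1a (0.57 ± 0.11) and Abcc2 (1.12 ± 0.33), the cytochrome P450 genes Cyp3a13 (0.42 ± 0.13) and Cyp2c55 (0.30 ± 0.097), and Alas1, the gene of the first enzyme of haem synthesis (0.57 ± 0.11, SE each). The 2 that were lower, as were 5.84% of all genes, were Sult1a1 and the retinaldehyde dehydrogenase gene Aldh1a1 (-0.60 ± 0.18, SE). Over the 16 targets, 10 differences were positive and 6 negative. Those of Cyp3a11 (-0.026), Cyp2b10 (0.074), Cyp2c65 (-0.013), Cyp2c66 (0.016) and Abcc3 (-0.037) were small. Cyp3a11 (mean 3.20 in HDAC3ΔIEC and 3.22 in HDAC3FF) and Cyp2b10 (4.18 in HDAC3ΔIEC and 4.10 in HDAC3FF) were dim. A small difference at such signals does not show an unchanged message. The sulphotransferase gene Sult1a1 read 8.83, 8.29 and 8.12 in HDAC3ΔIEC, against 10.33, 10.44 and 9.49 in HDAC3FF. Its groups did not overlap (-1.67 ± 0.28, SE, adjusted p = 0.062 in limma). The Sult1a1 difference passed without HDAC3FF replicate 3 (-1.97, adjusted p = 0.0084), and also with array weights (0.0203), an intensity trend (0.0307) and the dim filters at the 25th percentile (0.0424) and the median (0.0295). Alas1 (adjusted p = 0.0793 in limma) passed with array weights (0.0395).

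**Figure D4:**
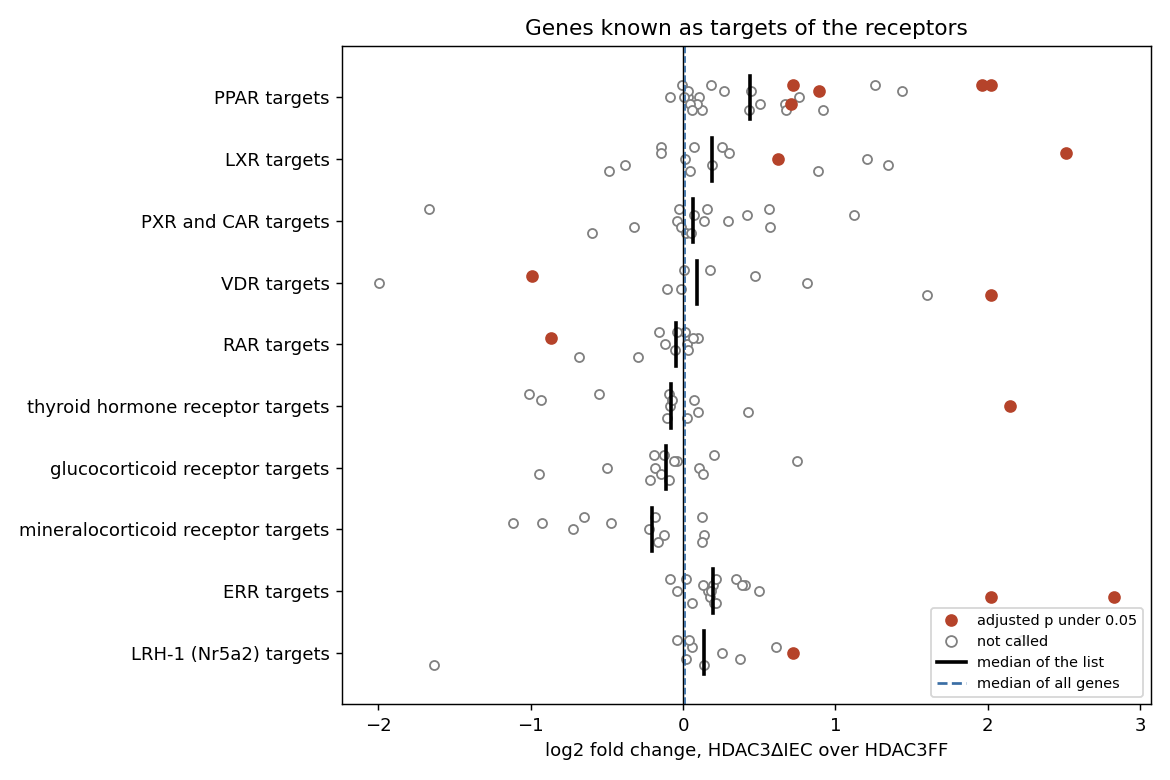
Log2 difference, HDAC3ΔIEC minus HDAC3FF, of each measured gene in lists of receptor targets; filled points passed at an adjusted p under 0.05, bars are list medians and the dashed line is the median of all genes. The PPAR list has 5 filled points, all above 0, and the PXR and CAR, glucocorticoid and mineralocorticoid lists have none.

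Of 12 thyroid hormone receptor targets, the malic enzyme gene Me1 rose (2.15 ± 0.26, SE) and the other 11 passed in neither direction (median -0.077). With the mean of its probe sets in place of the brightest, the Me1 difference was 1.38 and did not pass (adjusted p = 0.124 in limma). Of 10 VDR targets, Pdk4 rose, the claudin gene Cldn15 fell (-0.99 ± 0.12, SE) and 8 did not pass (median 0.093). Of 12 RAR targets, Lrat, the gene of the enzyme that esterifies retinol, fell (-0.87 ± 0.13, SE) and the other 11 passed in neither direction (median -0.048). Lrat did not pass after quantile normalization (adjusted p = 0.0647 in limma) or with adjustment over all probe sets (0.0539). None of 14 glucocorticoid receptor targets passed (median -0.11), the lowest p being those of Pck1 (-0.95 ± 0.18, SE) and the metallothionein gene Mt1 (0.75 ± 0.21, SE). Pck1 passed with array weights (adjusted p = 0.0348 in limma), with the dim filter at the median (0.0456) and without HDAC3FF replicate 3 (0.0201). None of 12 mineralocorticoid receptor targets passed (median -0.21), the lowest p being those of Hsd11b2 (-1.12 ± 0.22, SE) and Usp2 (-0.48 ± 0.12, SE), of which Usp2 passed with array weights (adjusted p = 0.0466 in limma). Of 18 ERR targets, Pdk4 and the creatine kinase gene Ckb (2.83 ± 0.15, SE) rose, and the other 16 passed in neither direction (median 0.20). Pdk4 is the same gene in the PPAR, VDR and ERR lists, so its call counts in each. Of 11 LRH-1 targets, the dim Nr0b2 rose, none fell and 10 did not pass (median 0.14).

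Of 6 further receptor genes measured, 2 passed, beside 0.701% of all genes, and Nr0b2 of these is also the call of the LRH-1 list. Hnf4g, the gene of a hepatocyte nuclear factor of intestinal epithelium, fell, and read 7.73, 7.05 and 7.06 in HDAC3ΔIEC, against 8.97, 8.76 and 8.59 in HDAC3FF (adjusted p = 0.0334 in limma). Nr0b2, the gene of the repressor SHP, was dim and rose, and read 4.77, 4.75 and 4.64 in HDAC3ΔIEC, against 3.93, 3.90 and 4.18 in HDAC3FF (adjusted p = 0.0383 in limma). Over the single omissions Hnf4g passed in 2 and Nr0b2 in 1 of 6. Hnf4a, the FXR gene Nr1h4 and the REV-ERB genes Nr1d1 and Nr1d2 did not pass, at -0.057 ± 0.20, -0.12 ± 0.11, 0.23 ± 0.33 and 0.14 ± 0.081 (SE).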

How the data were processed

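RNA of 3 HDAC3ΔIEC and 3 HDAC3FF mice, called biological replicates in the series' design text, was measured on 1 array each. Each probe set has a deposited log2 signal on every array; per the submitters' processing notes Affymetrix Power Tools was used, and its version, background correction and normalization are not stated. Of 24939 probe sets, 21105 name 1 gene, 1254 several and 2580 none; 21022 were matched to RefSeq (GRCm38.p6) by gene number. A gene with several probe sets was represented by the brightest, by its mean of 6 arrays. The number of arrays limits the precision.

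limma 3.58.1 in R 4.3.3 (lmFit and eBayes, 3.26 prior degrees of freedom, no covariate, two-sided) compared the genotypes, with Benjamini-Hochberg adjustment over all 19533 genes. Pairs of receptors were compared with an exact permutation test (scipy 1.17.1). The fit was tested on simulated data. The alternatives tried were array weights, an intensity trend, a robust prior, a replicate block, quantile normalization, median centring, dim filters, the mean of all probe sets, adjustment over all probe sets, an adjusted p under 0.10 and omissions of arrays.

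The members and lists were chosen with earlier results of these data known. All measured receptors are named; of each other list, up to 4 called genes with the largest difference or, with none called, the 2 with the lowest p. Krt8, Tagln and Lyve1 were the brightest epithelial, fibroblast and muscle, and endothelial markers in that order. C1qa, Cd14, Pdgfrb, Pecam1, Hadha, Abcb1a, Abcc2, Cyp3a13, Cyp2c55, Aldh1a1, Cyp3a11, Cyp2b10, Cyp2c65, Cyp2c66 and Abcc3 were named after their values were seen. Same-numbered arrays of the groups deviated from their group means with correlations of -0.024, -0.065 and -0.20, so the numbers were not taken to pair mice.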

Additional observations from a re-analysis of the deposited data

How the results depend on the processing

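Of 624 recomputed receptor differences, 575 kept their direction and side of the threshold, 4 newly passed and 45 changed sign, in 17 receptors none of which differed by more than 0.19. The fit with the replicate number as a block called 0 receptors, 2 genes of the lists and 12 of all genes, where 137 passed without it. Array weights called 1 of the 38 receptors higher, 24 list genes and 357 of all genes. An adjusted p under 0.10 called 25 list genes, without a count of all genes at that level beside it. Without replicate 3 of both groups, 2 of the 38 receptors were called higher and 1 lower, and 24 had groups that did not overlap (beside 47.3% of all genes). In that fit 34 list genes passed and 744 of all genes did. Over the 6 single omissions, 9 to 15 of the 38 receptors had groups that did not overlap, beside 23.6% to 31.7% of all genes. In those fits 3 to 23 list genes passed, and 13 to 430 of all genes did. Groups of fewer arrays overlap less often by construction; the cause of the other shifts was not tested. With array weights the sign changed for Rxrg -0.018, Esr2 -0.058, Pgr -0.0090, Nr4a1 0.049, Nr4a3 -0.019, Nr0b1 0.0019 and Hnf4a 0.11. With quantile normalization it changed for Rorb -0.015 and Nr4a3 -0.012, and without replicate 3 of both groups for Pparg -0.13, Rxrg -0.073, Rarb 0.034, Nr3c1 -0.058, Esr2 -0.13, Pgr -0.044, Rorb -0.0063, Nr4a1 0.22, Nr4a3 -0.045, Nr0b1 0.021 and Hnf4a 0.30. The differences that changed sign in a single omission ranged over Ppara -0.15 to 0.061, Pparg -0.035 to 0.25, Rxrb -0.030 to 0.12, Rxrg -0.092 to 0.12, Rara -0.027 to 0.14, Rarg -0.024 to 0.095, Esr2 -0.098 to 0.11, Pgr -0.039 to 0.066, Rorb -0.022 to 0.031, Nr4a1 -0.26 to 0.18, Nr4a3 -0.027 to 0.029, Nr2f6 -0.16 to 0.020, Nr5a1 -0.026 to 0.070, Nr5a2 -0.18 to 0.098, Nr0b1 -0.050 to 0.037 and Hnf4a -0.17 to 0.13. Of all genes, 178 passed with an intensity trend, 90 with adjustment over all probe sets and 190 of 9766 with the filter at the median. None of the 38 receptors was among them. Background is not marked, so absence of message cannot be read from dim signals.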

Other observations

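None of 24 genes for enzymes that make or remove receptor ligands passed, with 6 (25%) at an unadjusted p under 0.05, beside 11.2% of all genes, and a median difference of 0.022. Dio1, the gene of a deiodinase that converts thyroid hormone, read 7.86, 7.49 and 7.43 in HDAC3ΔIEC, against 8.30, 8.39 and 8.89 in HDAC3FF. Hsd11b2, whose product shields the mineralocorticoid receptor from glucocorticoids, read 9.91, 9.49 and 9.06 in HDAC3ΔIEC, against 10.34, 10.68 and 10.81 in HDAC3FF. The groups of both genes did not overlap, at adjusted p = 0.0908 for Dio1 and 0.091 for Hsd11b2 in limma, and both differences, -0.93 ± 0.18 and -1.12 ± 0.22 (SE), were larger in size than that of any of the 38 receptors. Of 12 carriers of ligands, 1 rose, none fell and 11 did not pass (median 0.054). It was the retinol-binding protein gene Rbp7, which read 6.17, 6.47 and 6.11 in HDAC3ΔIEC, against 4.62, 4.73 and 4.79 in HDAC3FF (adjusted p = 0.00458 in limma). None of 14 coactivator genes passed (median -0.15), the lowest p being those of Ncoa4 (-0.31 ± 0.097, SE) and the arginine methyltransferase gene Carm1 (0.33 ± 0.12, SE).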
